A study of Caenorhabditis elegans with 2 samples.

Results

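Aminoacyl-tRNA synthetases join each amino acid to its tRNA, the step that supplies the ribosome with charged tRNA. Animal cells make proteins in the cytosol and in mitochondria, and for most amino acids each compartment has an enzyme encoded by its own nuclear gene. Both kinds of enzyme are made on cytosolic ribosomes, and the mitochondrial ones are then imported. In mammals, ATF4, a basic leucine zipper factor that acts downstream of the PERK and GCN2 kinases, raises the transcription of many cytosolic synthetase genes under amino acid or endoplasmic reticulum (ER) stress. XBP-1 is the basic leucine zipper factor of the IRE-1 arm of the ER stress response. Its peaks at the synthetase genes of Caenorhabditis elegans are described here.

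The genes are the protein-coding genes of the nematode assembly WBcel235 whose symbol is a letter, then ars-, then a number. The rule found 32 of the 19973 nuclear protein-coding genes. It uses names only and no measured value. RefSeq product names and the known roles of the enzymes placed 16 of the 32 in the cytosol and 12 in mitochondria. The other 4 (gars-1, hars-1, kars-1 and tars-1, for glycine, histidine, lysine and threonine) are the only gene for their amino acid and serve both compartments. cars-1 and qars-1, for cysteine and glutamine, also had no mitochondrial partner here and were counted as cytosolic. vars-1 was placed in mitochondria by elimination, since the other valine gene, glp-4, encodes the cytosolic enzyme. The members lie on 5 chromosomes, and none is on X. glp-4, Y105E8A.20 (mars-2 in RefSeq, the mitochondrial methionine enzyme) and prx-10, a locus that also encodes the mitochondrial tryptophan enzyme in RefSeq, have other symbols in the annotation. They are not counted among the 32 and serve only to complete pairs.

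The study is a chromatin immunoprecipitation with sequencing of 2 biological replicates of 1 group. The animals were whole hermaphrodite L1 larvae of strain OP506, with the genotype unc-119(tm4063) III; wgIs506, taken 6 h after synchronization by bleaching and starvation. They carry XBP-1 with GFP and FLAG at its C-terminus, and the description gives the antibody as anti-GFP, whereas another label field gives xbp-1. The labels do not say which promoter drives the tagged protein or whether the worm's own xbp-1 gene is intact, and signals of all tissues are mixed. The authors deposited relaxed lists, which mix peaks with background: 30000 regions came from replicate 1 alone, 28535 from replicate 2 alone and 26088 from the pool of both. The thresholded list, chosen for reproducibility between the replicates, holds 3641 peaks. Each region carries a signal value from the authors' peak caller, whose scale is not stated, so that values are read only within a list. The lists give no read totals, so the depth is unknown.

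A gene was given a promoter peak when a thresholded summit fell in the 1000 bp before one of its transcript starts or in the 200 bp after it. 16 of the 32 synthetase genes had a promoter peak (50%, Wilson 95% interval 33.6 to 66.4, counting error over genes only), against 15.5% of all nuclear protein-coding genes. The share was 50% in each class, with 8 of 16 cytosolic genes (interval 28 to 72), 6 of 12 mitochondrial genes (25.4 to 74.6) and 2 of 4 genes that serve both compartments (15 to 85). The intervals are wide, so equal shares here do not show that the classes are alike. The peaks were mostly weak. The strongest peak of each of the 16 genes had a median signal value of 112 and a median rank of 2419.5 in the thresholded list, against 180 and 1449 over the 3095 genes with a promoter peak. The best rank was 303, and 5 of the 16 genes (31.2%) were among the first 1000 peaks, against 36.4% of all genes with a promoter peak. Of the 32 genes, 6 (18.8%) had one of the 1820 strongest peaks, against 9.29% of all genes.

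**Figure D1:**
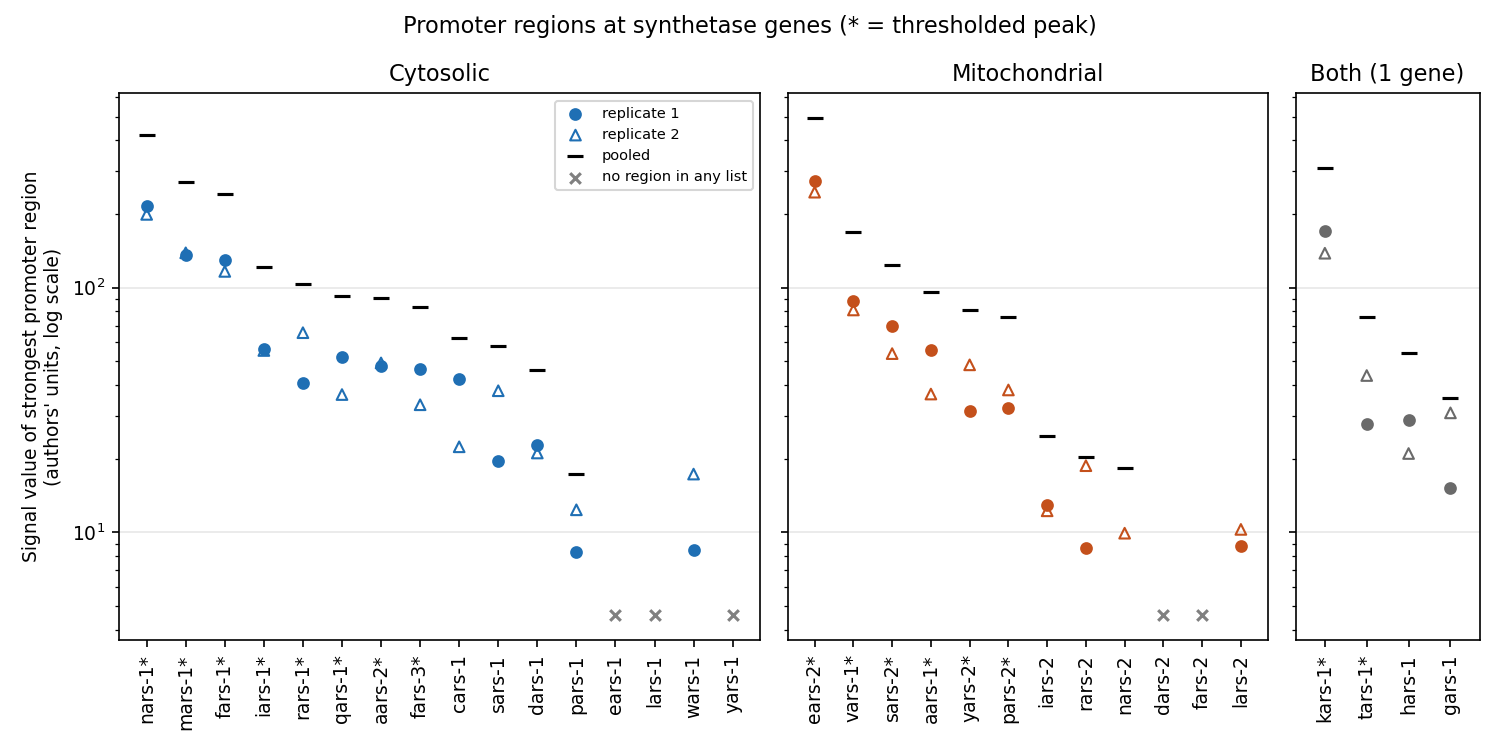
Signal value of the strongest region in the promoter window of each synthetase gene (y axis, authors' units, log scale) in replicate 1 (filled circles), replicate 2 (open triangles) and the pooled list (bars), by class of gene. Asterisks mark the 16 genes with a thresholded peak and crosses the 5 genes without a region in any list. Pooled values stand above replicate values, but values are read only within a list. The strongest region of a gene can lie at a different place in each list.

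The strongest synthetase peaks lay upstream of ears-2, kars-1 and mars-1 on chromosomes that can be shown, and the bases around these summits are printed first, as the places where the signal was highest. Each is read on the strand of the gene in WBcel235 (the same assembly as ce11, RefSeq sequence), covers up to 50 bases on either side of the summit without annotated exons, and has the summit base in capitals. ears-2 is chrIV:390469-390558, kars-1 is chrII:7072750-7072850 and mars-1 is chrIV:11635716-11635816, all on the minus strand.
ears-2: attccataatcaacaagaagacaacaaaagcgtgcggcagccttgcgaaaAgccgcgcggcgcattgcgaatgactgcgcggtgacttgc
kars-1: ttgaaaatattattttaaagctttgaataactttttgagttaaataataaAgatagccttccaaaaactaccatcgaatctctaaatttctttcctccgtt
mars-1: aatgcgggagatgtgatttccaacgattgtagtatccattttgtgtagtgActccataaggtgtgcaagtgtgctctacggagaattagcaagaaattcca

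A mitochondrial gene had the strongest peak. ears-2 (WBGene00001338), the mitochondrial glutamate enzyme, which also charges the mitochondrial glutamine tRNA for later conversion, had a signal value of 492 in the thresholded list (rank 303; peak chrIV:390382-390593). Its region had a value of 272 in replicate 1 (rank 271) and 245 in replicate 2 (rank 290). The place in the list was therefore close to the same in each replicate. The summit lay 40 bp upstream of ears-2 and 52 bp upstream of uncp-18 on the opposite strand, so that the peak cannot be given to either gene alone.

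nars-1 (WBGene00003815), the cytosolic asparagine enzyme, came next with a value of 421 (rank 394; chrI:7090305-7090561). Replicate 1 gave 215 (rank 400) and replicate 2 gave 199 (rank 418). Its summit lay 373 bp upstream of nars-1 but 305 bp upstream of nduf-6, a gene of mitochondrial respiratory complex I on the opposite strand. kars-1 (WBGene00002238), the lysine enzyme of both compartments, had a value of 310 (rank 682; chrII:7072684-7072966), with 171 in replicate 1 (rank 610) and 138 in replicate 2 (rank 786). Its summit, 385 bp upstream, lay in the window of no other protein-coding gene.

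mars-1 (WBGene00003415), the cytosolic methionine enzyme, was the only member with 2 thresholded summits in its window. The stronger had a value of 271 (rank 827; chrIV:11635667-11635842) and lay 279 bp upstream, with 136 in replicate 1 (rank 870) and 139 in replicate 2 (rank 784). fars-1 (WBGene00001497), the alpha subunit of the cytosolic phenylalanine enzyme, had a value of 242 (rank 995; chrI:6215489-6215660), with 129 in replicate 1 and 117 in replicate 2. That summit lay 885 bp from fars-1 and 157 bp from rbm-5, an RNA-binding protein gene on the other strand. vars-1 (WBGene00006935) had 169 (rank 1547; chrV:8031288-8031407), with 88.5 in replicate 1 and 81.1 in replicate 2, and its summit was 66 bp upstream. These were the 6 genes among the 1820 strongest peaks.

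The other 10 genes with a peak had values from 75.7 to 124 and ranks from 2211 to 3516. sars-2, the mitochondrial serine enzyme, had 124 (69.8 in replicate 1 and 53.8 in replicate 2), and iars-1, the cytosolic isoleucine enzyme, had 121 (56.3 and 55.4). At the lower end, the replicates placed some genes differently. rars-1, the cytosolic arginine enzyme, had 40.9 in replicate 1 (rank 3390) and 65.5 in replicate 2 (rank 2054), and aars-1, the mitochondrial alanine enzyme, had 55.5 (rank 2507) and 36.8 (rank 3612). Just above the lowest value of the thresholded list, 73.3, stood tars-1 (75.7), pars-2 (76.2) and yars-2 (81.1), and just below it in the pooled list stood cars-1 (62.1), sars-1 (57.6) and hars-1 (53.8). With as many of the strongest regions of a replicate as there are thresholded peaks, 12 of the 16 genes had a region in each replicate. In replicate 1, pars-2, tars-1 and yars-2 were lost and cars-1 was gained, which gave 14 of 32 genes, 9 of 16 cytosolic and 4 of 12 mitochondrial, against 15.4% of all genes. In replicate 2, fars-3 was lost and sars-1 gained, which left the counts at 16, 8 and 6, against 15.2% of all genes.

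Where a replicate region covered the thresholded summit, its own summit lay near it. Against the thresholded summit, the summit of the covering region moved by a median of 6 bp in replicate 1 (15 genes, at most 53 bp) and 13.5 bp in replicate 2 (16 genes, at most 38 bp). At kars-1 the region of replicate 1 did not cover the thresholded summit and was left out. Only covering regions were measured, which bounds the shift. The members' thresholded summits are those of the pool of both replicates, and the replicates were not compared with each other.

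The strength of cytosolic and mitochondrial peaks overlapped, and their difference was not tested. The strongest peaks of the 8 cytosolic genes had signal values from 83.5 to 421 with a median of 112 (median rank 2419.5). Those of the 6 mitochondrial genes ran from 76.2 to 492 with a median of 110 (median rank 2506).

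The classes were placed differently against the transcript start, a comparison that was not among those planned and was not tested. All 6 mitochondrial summits lay within 200 bp of their gene, from 162 to 16 bp upstream (median -53 bp), whereas the 8 cytosolic summits lay from 976 to 124 bp upstream (median -451.5 bp), with only fars-3 within 200 bp. The ranges overlap at fars-3 (-124 bp) and sars-2 (-162 bp) alone. Over all 3095 genes with a promoter peak the median was -222 bp, with 44.9% within 200 bp. In C. elegans an annotated start often marks a trans-splice site and not the place where transcription begins, so these distances are to the annotation.

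**Figure D2:**
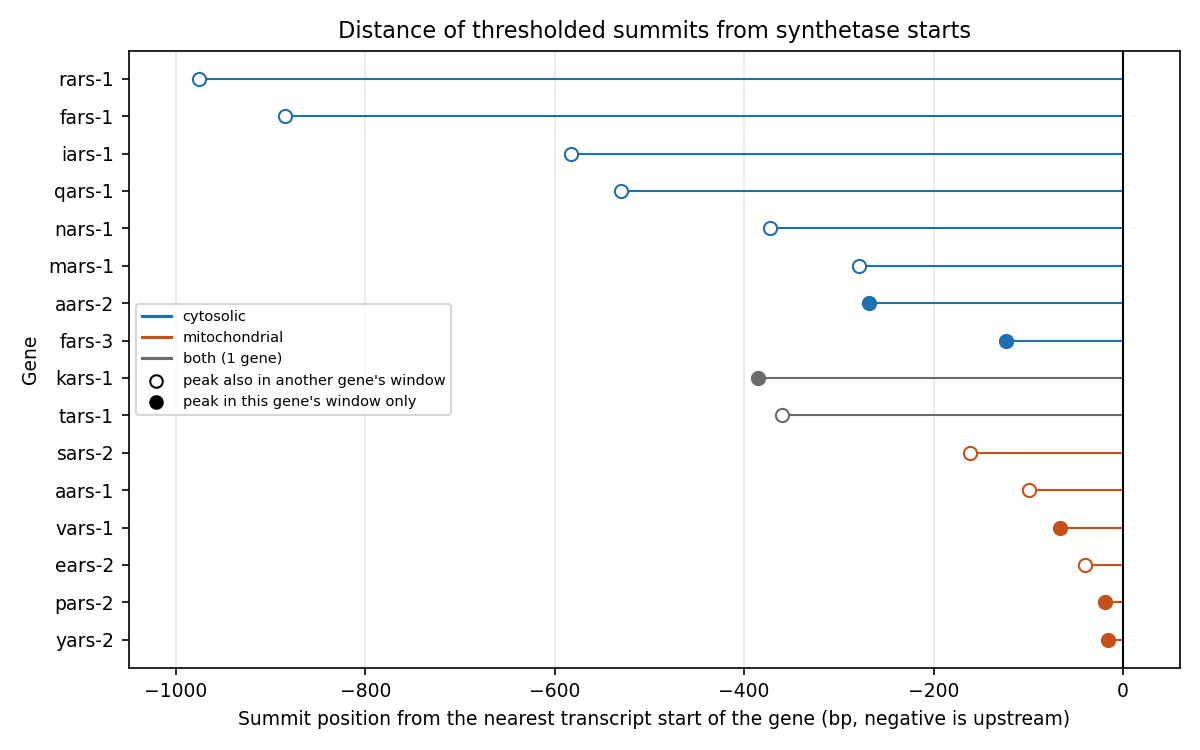
Position of the strongest thresholded summit of 16 synthetase genes from the nearest transcript start of the gene (x axis, bp, negative is upstream), coloured by class; open circles mark peaks that also lie in another gene's promoter window. All 6 mitochondrial summits lie within 200 bp of the start, and 7 of the 8 cytosolic summits lie farther away.

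Most of the distant cytosolic summits were nearer to a neighbour. 10 of the 16 genes (62.5%) shared their peak with another protein-coding gene, against 52.6% of all genes with a promoter peak. The neighbour's start was the nearer for 5 of 6 cytosolic genes that shared a peak and for tars-1, and for none of the 3 mitochondrial genes. At rars-1 the summit was 976 bp upstream of rars-1 and 145 bp upstream of rpb-8, an RNA polymerase subunit gene that precedes it on the same strand with a gap of 66 bp. At iars-1 it was 583 bp away and 228 bp from pges-2, and at qars-1, the glutamine enzyme, 530 bp away and 322 bp from Y41E3.7, both on the opposite strand. At tars-1 it was 360 bp upstream of an internal transcript start and 175 bp from kel-1. That summit lay inside the gene, 1004 bp downstream of its 5'-most start, and tars-1 had no promoter peak when only the 5'-most start of each gene was used.

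The rule of assignment therefore weighs on the cytosolic count. With windows of 500 bp upstream, 4 of 16 cytosolic genes (25%) and 6 of 12 mitochondrial genes (50%) had a peak, against 12.8% of all genes. With each summit given only to the nearest transcript start, the counts were 3 of 16 (18.8%) and 6 of 12 (50%), against 11.9% of all genes. A window of 2000 bp upstream added iars-2 and gave 17 of 32 genes, with 8 of 16 cytosolic and 7 of 12 mitochondrial, against 19.4% of all genes. ears-2, kars-1, mars-1 and vars-1 had a peak under all 12 alternative rules tried. Of these rules, the wider window, any overlap of the peak with the window and the longer pooled lists could only add genes. Taking as many of the strongest pooled regions as there are thresholded peaks changed no member's call. The members' thresholded peaks have the same values and ranks in the pooled list. This rule therefore could not take a peak from any member that had one, and it is no separate check.

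**Figure D3:**
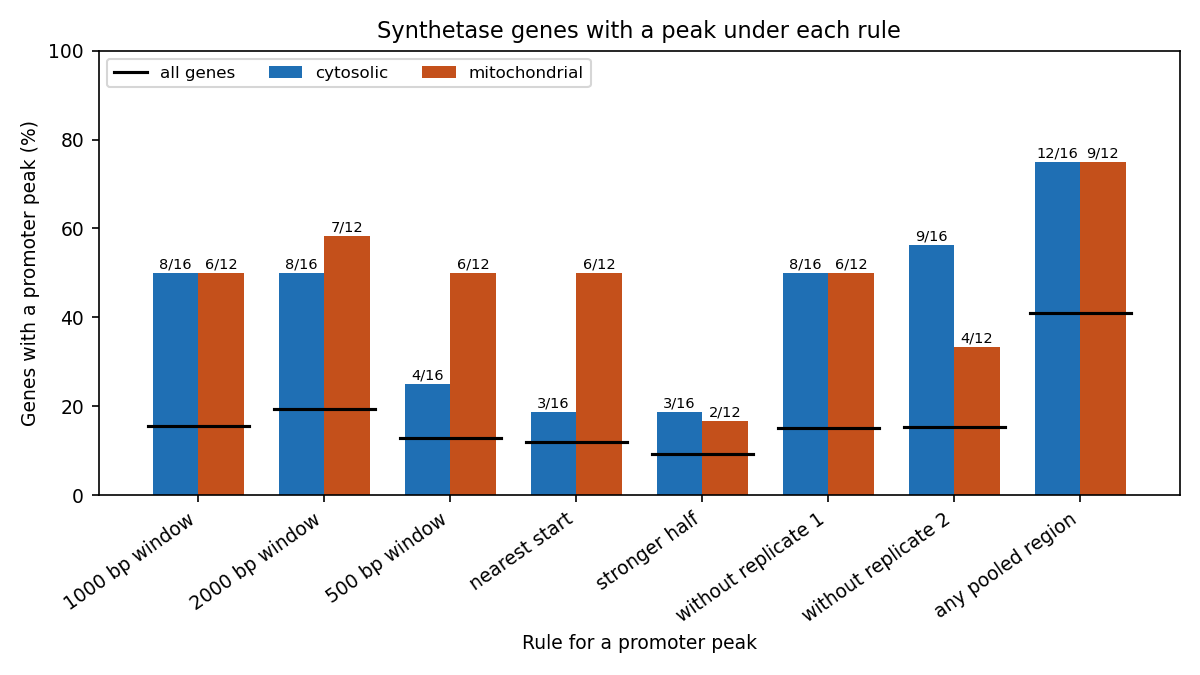
Share of cytosolic and mitochondrial synthetase genes with a promoter peak (y axis, %, bars with counts) under 8 rules, with the share of all nuclear protein-coding genes under the same rule as a black line. The classes are equal at 50% with the 1000 bp window, while with the nearest start 3 of 16 cytosolic and 6 of 12 mitochondrial genes have a peak.

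Within the rule, 11 amino acids have a cytosolic and a mitochondrial gene. For alanine both had a peak. The cytosolic side alone had one for 4 amino acids, the mitochondrial side alone for 4, and neither for 2. Of all single genes, 15.5% had a promoter peak. With 11 pairs, these counts do not show that a peak at 1 gene goes with or against a peak at its partner. That was not tested. With each summit given to the nearest start, the cytosolic side alone had a peak for 1 amino acid (phenylalanine, through fars-3), the mitochondrial side alone for the same 4, both for alanine and neither for 5. With the strongest regions of replicate 1 alone, the mitochondrial-only pairs fell to 2 (glutamate and serine), and with those of replicate 2 both serine genes had a region. The alanine genes had nearly equal values, 90.9 for cytosolic aars-2 (48.0 in replicate 1 and 49.3 in replicate 2) and 95.7 for mitochondrial aars-1.

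The cytosolic gene led for asparagine, phenylalanine, arginine and isoleucine, but the summits of nars-1, fars-1, rars-1 and iars-1 were all nearer to another gene, and none of the 4 had a peak under the nearest-start rule. nars-1 had 421, and the best pooled region of its mitochondrial partner nars-2 had 18.4 (rank 21112 of 26088), with 9.93 in replicate 2 and none in replicate 1. fars-1 had 242 and fars-3, the beta subunit of the same cytosolic enzyme, 83.5 (46.5 in replicate 1 and 33.2 in replicate 2), while mitochondrial fars-2 had no region in any list. rars-1 had 103 and rars-2 a pooled region of 20.3. iars-1 had 121 and iars-2 a pooled region of 24.7. A thresholded summit also lay 1815 bp upstream of iars-2, outside its window.

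The mitochondrial gene led for glutamate, serine, tyrosine and proline. ears-2 had 492, while cytosolic ears-1 had no region in any list and its nearest thresholded summit was 5804 bp upstream. sars-2 had 124 and cytosolic sars-1 a pooled region of 57.6 (19.5 in replicate 1 and 37.9 in replicate 2). yars-2 had 81.1 (31.4 in replicate 1 and 48.4 in replicate 2) and cytosolic yars-1 no region in any list. pars-2 had 76.2 (32.1 in replicate 1 and 38.2 in replicate 2) and cytosolic pars-1 a pooled region of 17.4. sars-2 stood above sars-1 in every list, although sars-1 lay among the 3641 strongest regions of replicate 2 (rank 3508).

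Neither gene passed for aspartate or leucine. dars-1 had a pooled region of 46.2 and dars-2 none, and lars-1 had no region in any list. lars-2 had only replicate regions, of 8.84 in replicate 1 and 10.3 in replicate 2. They lay at different places, with summits at chrI:7460795 and chrI:7459853. Among the 3 pairs with a partner under another symbol, both genes had a peak for methionine (mars-1 with 271 and Y105E8A.20 with 112) and for valine (glp-4 with 75.7 and vars-1 with 169), and neither for tryptophan, where wars-1 had no pooled region and prx-10 had 19.2. Over all 14 pairs the counts were 3 with both, 4 with the cytosolic gene alone, 4 with the mitochondrial gene alone and 3 with neither. With the nearest start glp-4 had no peak either, and these counts were 2, 1, 5 and 6.

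**Figure D4:**
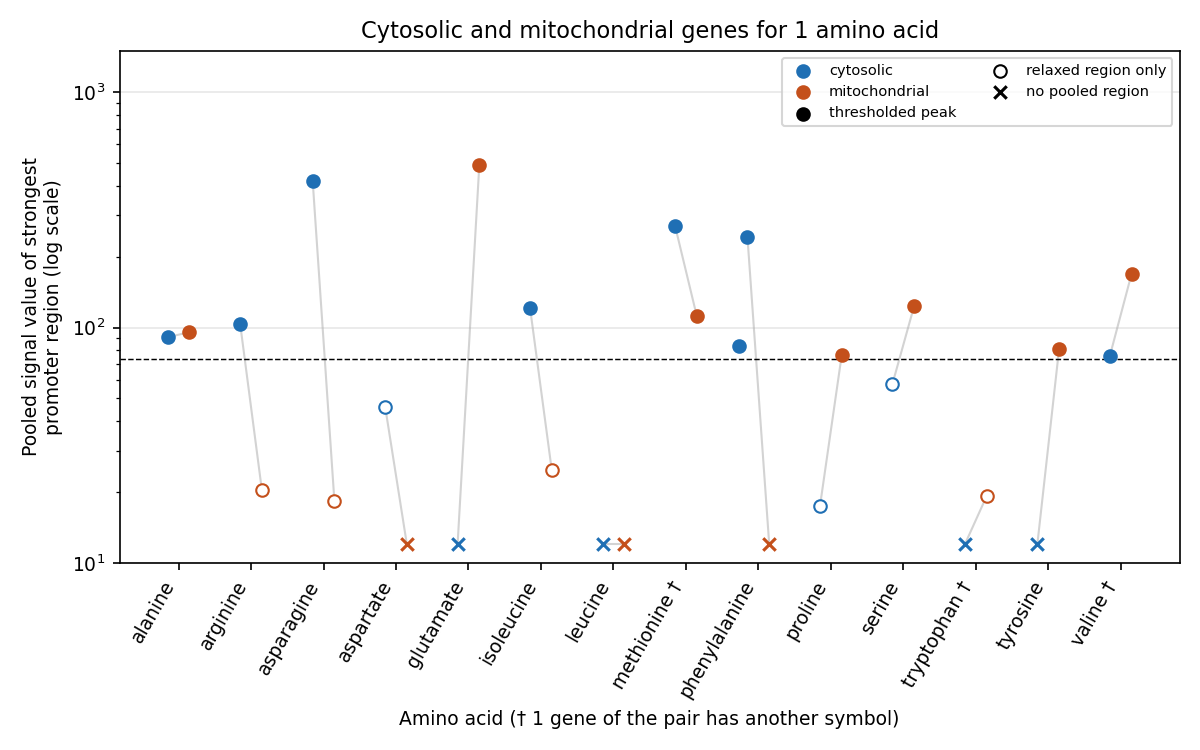
Pooled signal value of the strongest promoter region (y axis, log scale) of the cytosolic (blue) and mitochondrial (orange) gene for each of 14 amino acids, joined by a line from the first cytosolic to the mitochondrial gene. Filled points are thresholded peaks, open points relaxed regions only and crosses genes without a pooled region; the dashed line is the lowest thresholded value, 73.3, and daggers mark pairs with a gene outside the symbol rule.

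The 16 genes without a thresholded peak were not alike. 8 had a relaxed region in the pooled list and in each replicate (cars-1, dars-1, pars-1, sars-1, iars-2, rars-2, gars-1 and hars-1), 3 in some lists only (wars-1, lars-2 and nars-2), and 5 in none (ears-1, lars-1, yars-1, dars-2 and fars-2). With any pooled relaxed region counted, 25 of 32 genes (78.1%) had one, against 41% of all genes. That share was 75% in both the cytosolic (12 of 16) and the mitochondrial class (9 of 12). In the relaxed lists of single replicates, 26 of 32 genes (81.2%) had a region in replicate 1, against 43.4% of all genes, and 27 of 32 (84.4%) in replicate 2, against 43.5%. Among the genes of both compartments, gars-1 had 15.2 in replicate 1 and 30.8 in replicate 2, and hars-1 had 28.8 and 21.0. The gars-1 values come from different places, with summits 42 bp (replicate 1) and 502 bp (replicate 2) downstream of the nearest transcript start. A relaxed region in each list is thus not always the same region.

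Gene order also differed between the classes, a comparison chosen after the values were seen. Worm genes that follow each other closely on a strand can be transcribed together as an operon from 1 upstream promoter; operon annotation was not used here. A gene on the same strand ended within 1000 bp upstream of 9 of 12 mitochondrial members (75%) and of 3 of 16 cytosolic members (18.8%), against 28.9% of all genes. All 6 mitochondrial genes without a peak were in this position (dars-2, fars-2, iars-2, lars-2, nars-2 and rars-2, with gaps from 100 to 652 bp), as were 3 of the 6 with a peak. Of the 3 cytosolic genes in this position, fars-3 and rars-1 had a peak (66.7%) and yars-1 had none, while 6 of the other 13 had one (46.2%). yars-1 followed Y105E8A.20, which had a peak, at 110 bp. Among the mitochondrial genes without a peak, the upstream neighbours of iars-2 and lars-2 had a promoter peak. Those of dars-2, fars-2, nars-2 and rars-2 had none. Over all genes, 11.2% of those with such a neighbour and 17.2% of the others had a promoter peak.

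None of the 17 distinct synthetase peaks held a fixed motif near its summit. The core of the unfolded protein response element (TGACGTG, both strands), to which XBP-1 is known to bind, was within 50 bp of none of the 17 summits, which allows a share of up to 17.6%, and of 3.43% of all 3641 summits. It was absent from the whole width of these peaks too, where 5.58% of all peaks held it. The E-box CACGTG, the word CCACGT, the cyclic AMP response element TGACGTCA, the GAGAGAGA repeat and the GATA site TGATAA, each on either strand, were likewise near none of the 17, with the same limit, against 5.47%, 5.93%, 1.68%, 6.62% and 3.32% of all peaks. In windows of the same length centred 100 bp upstream of every gene, the 6 motifs were in 1.11%, 2.46%, 3.14%, 0.436%, 1.47% and 12.5%, in the same order with TGACGTG first. CCACGT overlaps CACGTG and TGACGTG by shared letters. ACGT, which these words and TGACGTCA contain, was chosen after the values were seen. It was within 50 bp of none of the 17 summits, with the same limit of 17.6%. It was near 30.1% of all summits and 29% of promoter summits, and in 23.1% of the windows upstream of every gene. No match says only that these letters are not in these windows. The bases around the 17 summits were 41.6% G+C at the median, against 47.5% for all promoter peaks.

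A word noticed in the sequences, GCNNTTGC on either strand, was within 50 bp of 5 of the 17 summits (29.4%, Wilson interval 13.3 to 53.1), at aars-2, pars-2, sars-2, tars-1 and vars-1. It was near 12.1% of all summits, 15.5% of promoter summits and 3.3% of positions 500 bp to either side, and in 2.68% of the windows upstream of every gene. The word was chosen from these same sequences, so its share among them is a description and no factor is named for it. The summit windows on chromosomes that can be shown are sars-2 (chrIV:4357424-4357524, plus strand), tars-1 (chrII:11694603-11694703, minus strand) and vars-1 (chrV:8031295-8031395, plus strand), with the word in capitals, read on its other strand at tars-1.
sars-2: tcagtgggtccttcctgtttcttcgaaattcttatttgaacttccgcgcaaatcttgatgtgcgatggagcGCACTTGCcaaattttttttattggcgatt
tars-1: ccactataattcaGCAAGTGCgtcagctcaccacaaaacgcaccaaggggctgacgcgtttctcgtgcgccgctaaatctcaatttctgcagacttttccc
vars-1: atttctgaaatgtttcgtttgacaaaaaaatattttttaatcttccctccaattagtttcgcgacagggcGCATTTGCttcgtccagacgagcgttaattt

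Genes that act before and after charging were also covered. A list of names gave 26 further genes, of tRNA handling and elongation together with exportin genes, gcn-1, gcn-2 and atf-4. The list was chosen with earlier results of these data known, so its share is a description only. Of these 26, 18 had a promoter peak (69.2%, interval 50 to 83.5), against 15.5% of all genes. Their median rank was 1172, against 1449 over all genes with a peak. All 6 eef- genes had one, led by eef-1A.1 (rank 99, signal value 803), whose product carries charged tRNA to the ribosome, and eef-2, the translocation factor (rank 122, 742). The mitochondrial elongation factor genes gfm-1 (rank 667, 314), tufm-2 (rank 715, 300) and tufm-1 (rank 2418, 112) had peaks, and tsfm-1 had a pooled region of 43.0. gcn-2, the kinase that senses uncharged tRNA (rank 1444, 180), its partner gcn-1 (rank 928, 253) and atf-4 (rank 1383, 188) had peaks. So did rtcb-1, the ligase that joins tRNA exons and the spliced xbp-1 mRNA (rank 2035, 133). Among tRNA modification genes, pus-1 (rank 1362, 190) and elpc-2 (rank 1346, 192) had a peak and elpc-1, elpc-3, tut-1, tut-2, alkb-8 and nsun-2 had none. The exportin genes xpo-1 (rank 2290, 119), xpo-2 (rank 1530, 170) and xpo-3 (rank 2403, 113) each had one. hpo-31, which is on the list but is not an exportin gene, had none. Of the 18 peaks, 12 also lay in the window of another protein-coding gene, and 52.6% of all genes with a promoter peak shared theirs.

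Beside the ribosome the synthetase share lay between that of cytosolic and that of mitochondrial parts. 70 of 78 cytosolic ribosomal protein genes (89.7%, interval 81 to 94.7, median rank 461) and 31 of 70 mitochondrial ones (44.3%, interval 33.2 to 55.9, median rank 1199) had a promoter peak, against 15.5% of all genes. The cytosolic synthetases, at 8 of 16, had a share below that of cytosolic ribosomal proteins, and the interval of 28 to 72 does not reach it. For the mitochondrial class, 6 of 12 and 31 of 70 have intervals that overlap. The differences were not tested.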

How the data were processed

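Both replicates belong to 1 group. According to the deposited README of each sample, relaxed regions were derived from the alignments of each replicate and of both together with a further file, and the thresholded list from the relaxed ones by irreproducible discovery rate, on builds ce11 and ce10. Which aligner and peak caller were run is not given in the sources used here. The deposited signal value is the authors' own; the deposited −log10 q reaches a shared highest value and was not used to rank. ce10 lists were not used.

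Summits were placed on the Ensembl release 115 annotation of WBcel235, with sequence from RefSeq, in Python 3.11.15 (pandas 2.3.3, SciPy 1.17.1). The nuclear protein-coding genes served as background. Regions were ranked by signal value, and pairs were compared by their strongest promoter region. Intervals are 95% Wilson intervals, and a count of 0 was given a limit of 3 counts. No test was made: there is 1 group, peak lists only and no control immunoprecipitation used here. All members are named; pathway genes come from a list of 26 symbols, of which 20 matched, and the 6 eef- genes. Members, lists and motifs were chosen with earlier results of these data known. On planted summits, all 500 were given to their gene. Alternatives were other windows, starts, assignments, thresholds, peak lists, motif windows and each replicate left out.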

Additional observations from a re-analysis of the deposited data

How the results depend on the processing

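Over 12 alternative rules, the counts of 16 of all, 8 of cytosolic and 6 of mitochondrial genes stayed within 1.5 times except as follows. With 500 bp windows the cytosolic count was 4. With the nearest start the counts were 10 for all and 3 for cytosolic genes. Among the 1820 strongest peaks they were 6, 3 and 2, and with any pooled region 25 of all genes had one. Leaving out a replicate gave 14 to 16, 8 to 9 and 4 to 6. The median signal value of the 17 peaks was 121. Without replicate 1 the median was 55.4 over 17 peaks, and without replicate 2 it was 55.9 over 16 peaks. Each is on its own list's scale, and the sets of peaks are not the same. The 500 bp and nearest-start rules drop summits far from the start by construction, and wider windows and longer peak lists can only add genes. The rule with as many of the strongest pooled regions as thresholded peaks could not remove a member's peak, since the ranks are the same. The 5000 strongest pooled regions (19 genes), protein-coding transcripts alone (16), tars-1 as cytosolic (9 of 17) and the 3 genes with other symbols added (18 of 35) were chosen after seeing the data. The UPR element core was near none of the 17 summits in every window tried, against 2.03% to 5.58% of all peaks. No paired analysis was possible because there is 1 group.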
